A study of Mus musculus with 32 samples.

Results

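Genes of glycolysis and of the response to low oxygen were followed in 2 cell types sorted from injured mouse shoulder muscle: satellite cells, which are muscle stem cells, and fibro-adipogenic progenitors (FAPs), the mesenchymal cells between the fibres. The set was 32 gene symbols taken by name from a written list that was drawn up with earlier results of these data known. They matched 33 entries among the 55487 genes of the count tables, because Aldoa has a second entry. Cells came from the supraspinatus, a muscle of the rotator cuff, of wild-type (WT) C57BL/6J mice labelled male and 12 weeks old. Every muscle was injured with cardiotoxin, a venom toxin that destroys muscle fibres, and 1 of the 2 muscles taken from each mouse also received interscapular brown adipose tissue (BAT) from a mouse 3 weeks old. The groups were satellite cells with BAT at day 7, control satellite cells at day 7, satellite cells with BAT at day 3 and control satellite cells at day 3, and FAPs in the same 4 conditions. Each of the 8 groups had 4 libraries from 4 mice, and the mice of the 2 days were different animals. The control muscle had cardiotoxin alone, and no sham operation or other graft was analysed here, so the tissue and the act of placing it cannot be told apart.

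Glycolysis splits glucose into pyruvate, which lactate dehydrogenase turns into lactate when oxygen is short or growth is fast. Hypoxia-inducible factor (HIF) is a pair of proteins whose alpha subunit, the product of Hif1a or a relative, is marked for destruction by the prolyl hydroxylases Egln1 to Egln3 while oxygen is present. When the subunit persists, HIF binds DNA at a short core and raises genes of glucose uptake, glycolysis, lactate export, vessel growth and mitochondrial turnover. Hif1a itself is controlled mostly at the level of its protein, so its transcript is a poor readout of HIF activity. In muscle repair, satellite cells leave quiescence, divide and later fuse or return to rest, and their use of glycolysis is known to rise with activation. FAPs make collagen, whose stability needs the prolyl 4-hydroxylases P4ha1 and P4ha2.

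The DNA upstream of the genes was searched for the HIF core, spelled ACGTG or GCGTG on either strand, so CACGT and CACGC in the strand shown. The windows were the 250 bases before each gene's transcription start in RefSeq (GRCm38.p6, the mm10 coordinates), and overlapping matches were counted separately. At least 1 match lay upstream of 29 of the 31 members with an entry (93.5%), against 11226 of 27025 genes of the genome (41.5%). Among genes with a mean of at least 1 CPM (counts-per-million of a library's total) over the libraries, 6267 of 10245 (61.2%) had one. The member windows were also richer in GC, with a median of 62.8%, against 59.6% in windows of the genes at 1 CPM or more and 52.4% in all windows. Gpi1 and Tpi1 were the members with an entry but no match, and Ndrg1 had no entry. A match is a run of letters, not a binding site, and no binding was measured. Windows of 6 members called in the day comparison are shown as examples, with HIF cores in capitals, 5′ to 3′. They are not the members of largest change: Egln3, Eno1 and Vegfa, not shown, fell more than Bnip3 in control satellite cells. Pgk1, Ldha, Bnip3 and Tpi1 were lower at day 7 than at day 3 in control cells of both types, while P4ha2 and Pfkfb3 were higher at day 7 in control satellite cells.
Pgk1, chrX:106186850-106187099, plus strand: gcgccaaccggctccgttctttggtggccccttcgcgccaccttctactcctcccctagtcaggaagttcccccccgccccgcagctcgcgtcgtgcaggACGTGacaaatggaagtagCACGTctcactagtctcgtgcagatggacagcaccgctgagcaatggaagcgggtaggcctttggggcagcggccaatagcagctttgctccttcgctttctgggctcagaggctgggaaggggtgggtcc
Ldha, chr7:46845554-46845803, plus strand: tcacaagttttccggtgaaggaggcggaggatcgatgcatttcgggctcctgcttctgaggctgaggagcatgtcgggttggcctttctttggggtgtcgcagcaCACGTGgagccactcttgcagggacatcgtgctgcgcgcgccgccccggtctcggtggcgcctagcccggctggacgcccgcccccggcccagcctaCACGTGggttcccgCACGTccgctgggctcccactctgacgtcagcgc
Bnip3, chr7:138909507-138909756, minus strand: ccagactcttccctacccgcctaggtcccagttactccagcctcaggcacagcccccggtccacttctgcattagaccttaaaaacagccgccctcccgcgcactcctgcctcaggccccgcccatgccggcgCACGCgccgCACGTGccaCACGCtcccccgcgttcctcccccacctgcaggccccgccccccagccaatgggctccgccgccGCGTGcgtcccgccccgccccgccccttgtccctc
Tpi1, chr6:124814159-124814408, minus strand: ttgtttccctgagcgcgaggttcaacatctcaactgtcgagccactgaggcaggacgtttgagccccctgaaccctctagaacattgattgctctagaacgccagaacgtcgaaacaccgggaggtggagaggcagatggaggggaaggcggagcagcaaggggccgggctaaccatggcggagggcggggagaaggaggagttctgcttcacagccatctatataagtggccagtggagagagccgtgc
P4ha2, chr11:54100674-54100923, plus strand: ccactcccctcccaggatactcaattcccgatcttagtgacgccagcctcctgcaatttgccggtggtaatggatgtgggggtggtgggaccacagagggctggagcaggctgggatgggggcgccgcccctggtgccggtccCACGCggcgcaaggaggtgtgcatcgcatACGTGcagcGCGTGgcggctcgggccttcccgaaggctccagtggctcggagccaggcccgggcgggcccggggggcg
Pfkfb3, chr2:11502091-11502340, minus strand: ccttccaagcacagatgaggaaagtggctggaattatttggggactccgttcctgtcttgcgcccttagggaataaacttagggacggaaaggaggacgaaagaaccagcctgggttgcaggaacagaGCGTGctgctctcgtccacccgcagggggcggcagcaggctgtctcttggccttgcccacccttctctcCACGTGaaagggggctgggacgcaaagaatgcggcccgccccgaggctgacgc
Ldha and Pfkfb3 each have a second window, with 1 match, and the window with more matches is shown. In the windows shown, Ldha and Bnip3 had the most matches, 5 each, Pgk1 had 2, and P4ha2 and Pfkfb3 had 3 each. These windows were picked among genes that moved with the day and do not stand for all members. The number of matches was not compared with the day change over the members.

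Library totals ran over 19.8 M to 46.4 M counts with a median of 25.7 M, so a count of 0 in a library would allow a level of up to 0.0647 to 0.152 CPM, taking 3 counts as the floor for counting error. Sorted cells matched their labels: Itga7 lay at 319 to 873 CPM in satellite cell libraries and at 2.27 to 37.3 CPM in FAP libraries, while Pdgfra lay at 0.10 to 19.1 CPM in satellite cells and at 251 to 436 CPM in FAPs. Ly6a, which encodes the Sca1 of the gate, was at 2.38 to 42.8 CPM in satellite cells although the labels give both sorts as Sca1+. Macrophage markers, 12 genes summed, stood apart in 3 day 3 libraries, at 3954 CPM in FAPs with BAT replicate 1, 1597 CPM in satellite cells with BAT replicate 4 and 1445 CPM in control satellite cells replicate 3, against 5.26 to 146 CPM in the other day 3 libraries. The first 2 of these came from the same muscle of 1 mouse. Replicate numbers match between satellite cells and FAPs of a mouse at day 7, but not at day 3. There satellite cell replicates 1, 2, 3 and 4 share a mouse with FAP replicates 2, 3, 4 and 1, the pair of satellite cell replicate 3 being assumed, as given below. The day 7 mouse of replicate 3 had Xist at 163 to 355 CPM and Ddx3y at 0 in its 4 libraries, against its male label. Day, mice and deposited table changed together, so day cannot be told apart from anything else that differed between the sets. In bulk libraries, fewer cells of a type and less RNA per cell cannot be told apart.

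Per kilobase of exon, the same 3 genes led in all 8 groups in the same order: Aldoa, which cleaves fructose bisphosphate, Pkm, which makes pyruvate, and Ldha, which turns it into lactate. In control satellite cells Aldoa averaged 563 CPM per kb at day 7 and 957 CPM per kb at day 3. In control FAPs it averaged 279 CPM per kb at day 7 and 546 CPM per kb at day 3. At the other end stood regulators: Egln3 was lowest in all 4 FAP groups, at 0.734 CPM per kb in control FAPs at day 7, and Pdk1 or Vegfa was lowest in the satellite cell groups. A sum over the set is therefore mostly a sum of enzymes. The 11 entries of the enzymes from glucose-6-phosphate to pyruvate (Gpi1, Pfkl, Pfkp, Aldoa, Tpi1, Gapdh, Pgk1, Pgam1, Eno1 and Pkm) in control satellite cells summed to 4285 ± 351 CPM at day 7 and 8991 ± 633 CPM at day 3 (SD, n = 4). In control FAPs the sum was 2425 ± 583 CPM at day 7 and 5469 ± 704 CPM at day 3. Several of these genes have near-identical copies whose reads the counting could have split. Eno1 shares its sequence with Eno1b, which carried 64.0% of the level of Eno1 itself, and the named copies of Pgam1 carried 52.1% of Pgam1. Copies of Gapdh, Ldha, Aldoa and Pgk1 named as such carried 3.59% or less of the gene's own level. Whether counting used strand is not given in the sources used here, so reads of Gapdh and Iffo1, Tpi1 and Spsb2, Hk1 and Hk1os, Aldoa and Fam57b, or Pfkp and Pitrm1, which overlap on opposite strands, cannot be told apart.

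In control satellite cells most enzymes from glucose-6-phosphate to pyruvate fell at day 7 relative to day 3, while a smaller group of other members rose. Of 33 entries tested, 9 rose and 15 fell (edgeR, adjusted p under 0.05), where 59.4% of all 16597 genes tested were called, 29.7% higher and 29.8% lower at day 7. The median log2 change of the members was -0.52. Among the 11 enzyme entries between glucose-6-phosphate and pyruvate, 9 fell, Pfkp was not called and the second Aldoa entry rose, a call that 7 of the 8 fits leaving out a library did not keep (edgeR adjusted p of 0.0502 to 0.116). Pgk1, which yields the first ATP of the pathway (chrX:106187100-106203699), had 115, 83.2, 125 and 102 CPM at day 7 in these cells, against 397, 354, 326 and 321 CPM at day 3. All day 7 libraries lay below all day 3 libraries (log2 change -2.09 ± 0.15 SE, edgeR adjusted p = 6.28e-06). Eno1, the widely expressed enolase (chr4:150236721-150248879), had 311, 309, 288 and 289.7 CPM at day 7 and 1055, 874, 1086 and 1103 CPM at day 3. The groups did not overlap (log2 change -2.13 ± 0.11 SE, edgeR adjusted p = 1.95e-06), and with the reads of Eno1b added the means were 454 ± 15.6 CPM at day 7 and 1705 ± 191 CPM at day 3. Ldha (chr7:46841475-46855627) had 605, 557, 656 and 619 CPM at day 7, against 2091, 1700.5, 1666 and 1497 CPM at day 3, again without overlap (log2 change -1.88 ± 0.15 SE, edgeR adjusted p = 8.44e-06). Pgam1, Pkm, Gapdh, Tpi1, Aldoa, Gpi1 and Pfkl also fell, with log2 changes of -1.69 for Pgam1 to -0.63 for Pfkl. Pfkl, the liver-type phosphofructokinase, lost its call with scaling by library totals (adjusted p = 0.277), and without control replicate 4 of day 3 (adjusted p = 0.0623), replicate 1 of day 3 (0.07), replicate 1 of day 7 (0.0998) or replicate 3 of day 7 (0.0743). Pgk1, Eno1, Ldha, Pgam1, Pkm, Gapdh, Tpi1, Aldoa and Gpi1 kept their calls when any 1 library was left out.

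Members outside the steps from glucose-6-phosphate to pyruvate split into risers and fallers in control satellite cells. The 5 members with the largest rises were Pfkfb3, Ndrg1, P4ha2, Adm and Hk1. Pfkfb3 makes fructose 2,6-bisphosphate, the activator of phosphofructokinase (chr2:11471433-11554077), and had 26.0, 56.0, 39.6 and 24.9 CPM in control satellite cells at day 7, against 6.70, 4.14, 6.50 and 5.39 CPM at day 3. Every day 7 library was above every day 3 library (log2 change 2.36 ± 0.31 SE, edgeR adjusted p = 0.000128). Ndrg1, a stress-induced gene linked to growth arrest and differentiation, had 164, 249, 86.6 and 154 CPM at day 7 and 48.4, 23.0, 44.3 and 34.9 CPM at day 3 (log2 change 1.79 ± 0.33 SE, edgeR adjusted p = 0.00107). These groups lay apart too, with replicate 2 of day 7 the highest. P4ha2 (chr11:54100095-54131665), the second collagen prolyl 4-hydroxylase subunit, had 34.0, 48.3, 42.2 and 50.2 CPM at day 7 and 9.77, 9.31, 15.8 and 13.1 CPM at day 3. The groups were well apart (log2 change 1.53 ± 0.19 SE, edgeR adjusted p = 0.000103). Adm, the vasodilator peptide adrenomedullin, had 26.2, 29.3, 15.6 and 25.1 CPM at day 7 and 9.92, 6.49, 6.54 and 5.26 CPM at day 3 (log2 change 1.41 ± 0.27 SE, edgeR adjusted p = 0.00121). Hk1, the constitutive hexokinase, had 144, 156, 93.5 and 141 CPM at day 7 and 46.4, 38.3, 57.4 and 77.2 CPM at day 3 (log2 change 0.95 ± 0.21 SE, edgeR adjusted p = 0.00321). For Adm and Hk1 as well, no day 7 library was as low as any day 3 library. P4ha1, Pfkfb4, a relative of Pfkfb3, and the histone demethylase Kdm3a also rose, by 0.93, 0.88 and 0.87 on the log2 scale.

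Egln3, the oxygen sensor that is itself a HIF target (chr12:54178981-54203860), had the largest fall of any member. It had 3.00, 2.90, 4.25 and 2.60 CPM in control satellite cells at day 7, against 34.8, 23.2, 24.0 and 25.5 CPM at day 3, with no overlap (log2 change -3.43 ± 0.22 SE, edgeR adjusted p = 4.14e-06). Vegfa, the growth factor of vessels, had 1.91, 2.74, 1.60 and 1.958 CPM at day 7 and 8.60, 3.92, 6.14 and 5.39 CPM at day 3 (log2 change -1.89 ± 0.30 SE, edgeR adjusted p = 0.000460). It was below 3 CPM in every day 7 library and above that in every day 3 library. Bnip3, which drives removal of mitochondria, fell with a log2 change of -1.19 ± 0.30 SE. Higd1a, a small protein of the respiratory chain, fell with -0.98 ± 0.15 SE and Slc2a1, the glucose transporter GLUT1, with -0.96 ± 0.30 SE. Slc2a1 lost its call with scaling by library totals (adjusted p = 0.0705), and without control replicate 1 of day 3 (0.0541), replicate 4 of day 7 (0.065) or replicate 3 of day 7 (0.0517). Hif1a was at 45.4 to 80.3 CPM at day 7 and 47.0 to 51.5 CPM at day 3, a log2 difference of 0.10 ± 0.20 SE that was not called (edgeR adjusted p = 0.689). Hk2, Pfkp, Slc16a3, Pdk1, Egln1, Ankrd37, Mxi1 and Ddit4 were not called either.

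Markers of other cells moved with the day in the same libraries. In control satellite cells, pericyte and smooth muscle markers summed to 1725 to 3319 CPM at day 7 and 177 to 295 CPM at day 3, a range without overlap. Schwann cell markers summed to 119 to 746 CPM at day 7 and 18.6 to 68.3 CPM at day 3. FAP markers summed to 133 to 425 CPM at day 7 and 38.7 to 275 CPM at day 3, against 5304 CPM or more in any FAP library of day 3. Mature myofibre markers summed to 2379 to 5571 CPM at day 7 and 1886 to 2387 CPM at day 3. That list holds Eno3, the muscle enolase, which went the other way, averaging 329 CPM at day 7 and 1674 CPM at day 3. Myh4, a fibre myosin of the list, lay at 19.0 to 73.9 CPM at day 7 and 0.114 to 0.582 CPM at day 3. The part of these other cells in the day changes was not tested. Without control satellite cell replicate 3 of day 3, the library rich in macrophage markers, 8 members rose and 16 fell.

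**Figure D1:**
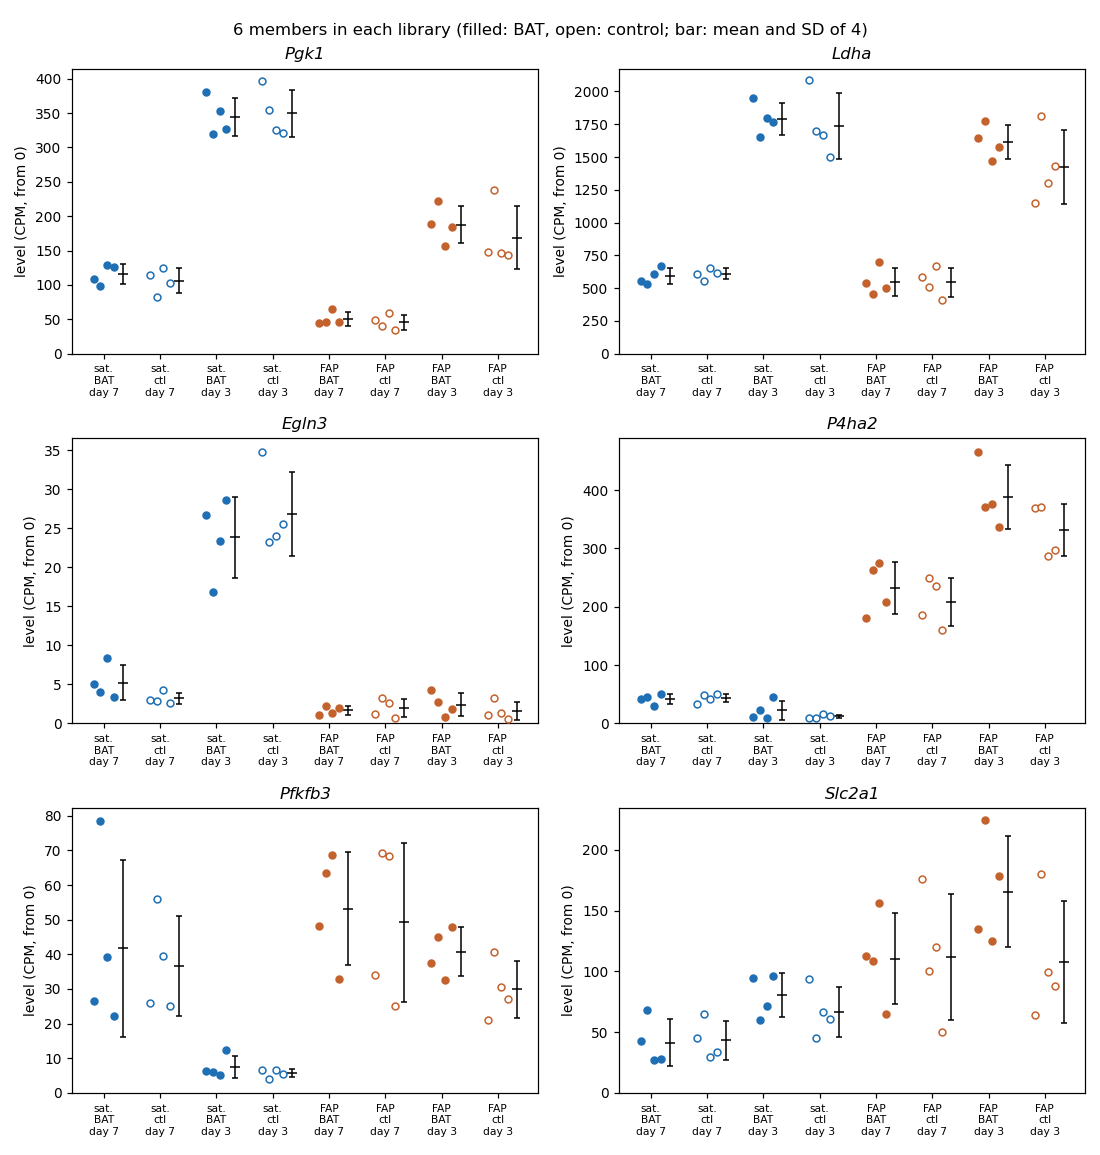
CPM of Pgk1, Ldha, Egln3, P4ha2, Pfkfb3 and Slc2a1 in each of the 32 libraries, grouped on the horizontal axis by cell type, treatment and day. The vertical axis is linear. Filled points are BAT libraries, open points control libraries, and bars the mean and SD. In satellite cells the day 7 points of Pgk1, Ldha and Egln3 lie below the day 3 points and those of Pfkfb3 above them, while P4ha2 is far higher in FAPs than in satellite cells.

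In control FAPs the enzymes fell at day 7 as well, and few members rose. Of 32 entries tested, 3 rose and 12 fell, with a median log2 change of -0.48, where 23.0% of the 16144 genes tested were called, 11.5% higher and 11.4% lower at day 7. The falls took in 8 of the 10 enzyme entries, with Ldha, Vegfa, Bnip3 and Higd1a. Pgk1 had 48.3, 41.0, 59.2 and 34.1 CPM in control FAPs at day 7 and 147, 238, 147 and 144 CPM at day 3, without overlap (log2 change -1.83 ± 0.25 SE, edgeR adjusted p = 0.00194). Eno1 had 127, 222, 164 and 119 CPM at day 7, against 471, 596, 444 and 509 CPM at day 3 (log2 change -1.59 ± 0.26 SE, edgeR adjusted p = 0.00370). Ldha had 588, 511, 667 and 412 CPM at day 7 and 1153, 1814, 1305 and 1428 CPM at day 3 (log2 change -1.33 ± 0.23 SE, edgeR adjusted p = 0.00434). For these enzymes every day 7 library was below every day 3 library. Gapdh, the dehydrogenase that reduces NAD+, had 38.5, 35.5, 47.5 and 28.0 CPM at day 7 and 95.9, 111, 82.3 and 94.9 CPM at day 3 (log2 change -1.29 ± 0.20 SE, edgeR adjusted p = 0.00265). Tpi1, the triose isomerase, had 148, 121, 165 and 125 CPM at day 7 and 334, 417, 299.9 and 331 CPM at day 3 (log2 change -1.25 ± 0.18 SE, edgeR adjusted p = 0.00217). Their groups did not overlap either.

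The rises in FAPs were Ndrg1, Kdm3a and Pfkfb4. Ndrg1 had 272, 886, 344 and 231 CPM in control FAPs at day 7, against 124, 200.1, 162 and 136 CPM at day 3, with replicate 2 of day 7 far above the rest (log2 change 1.60 ± 0.45 SE, edgeR adjusted p = 0.0284). Kdm3a had 33.4, 28.1, 36.3 and 23.7 CPM at day 7 and 16.0, 18.8, 16.3 and 18.1 CPM at day 3 (log2 change 0.88 ± 0.18 SE, edgeR adjusted p = 0.00785). Pfkfb4 had 10.2, 5.90, 6.85 and 8.503 CPM at day 7 and 5.80, 4.42, 3.97 and 5.61 CPM at day 3 (log2 change 0.73 ± 0.21 SE, edgeR adjusted p = 0.0312). All 3 genes were higher in every day 7 library than in any day 3 library, but the margins of Pfkfb4 were small. The Ndrg1 call was lost without any 1 of the day 3 replicates 1, 2, 3 and 4 (adjusted p of 0.0766, 0.0524, 0.0689 and 0.0835). Pfkfb4 lost its call without day 3 replicate 2, 3 or 4 (0.0799, 0.0936 and 0.0662) or day 7 replicate 1 or 4 (0.0825 and 0.0501), with scaling by library totals (0.0777) or without a filter on low counts (0.0576). Aldoa lost its call without day 3 replicate 2 (0.0575). Pkm lost its call without day 3 replicate 2 or 4 (0.0681 and 0.0516) or day 7 replicate 1 (0.0572). Vegfa lost its call without day 3 replicate 2, 3 or 4 (0.111, 0.0875 and 0.0503) or day 7 replicate 2 or 3 (0.0668 and 0.0536). Leaving out a library in turn, 10 to 16 members were called in all. Brown and beige fat markers summed to 24.4 CPM in control FAPs replicate 4 of day 7, with Ucp1 at 13.0 CPM, while the day 7 FAP libraries beside it, with and without BAT, had sums of 0.623 to 4.33 CPM. Without that control library 3 members rose and 12 fell, with a median of -0.28. Tenocyte markers summed to 301 to 4001 CPM in control FAPs at day 7 and 199 to 547 CPM at day 3, and their part was not tested.

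**Figure D2:**
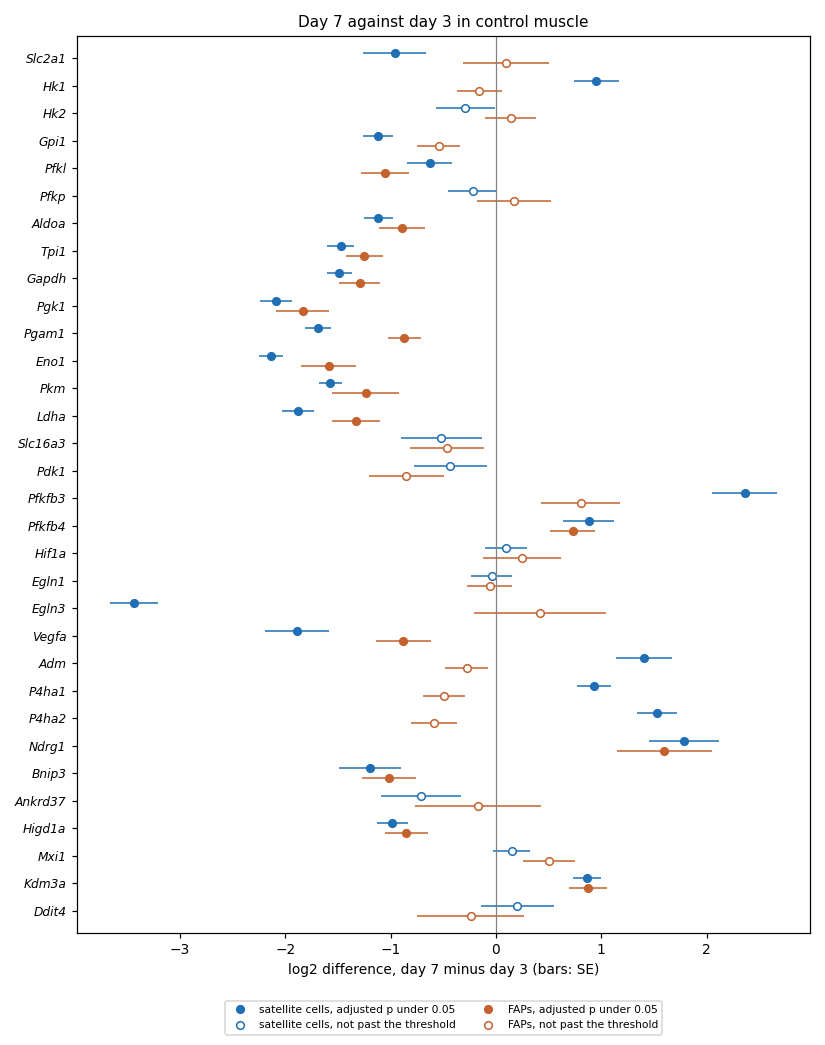
Log2 change of each member (the second Aldoa entry is not drawn) at day 7 relative to day 3 in control satellite cells and control FAPs, in order of role down the vertical axis; horizontal bars are ± SE and filled points were called by edgeR at an adjusted p under 0.05. Enzymes from Aldoa to Pkm lie left of 0 in both cell types, while Pfkfb3, Adm, P4ha1 and P4ha2 lie right of 0 in satellite cells.

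The day change itself was compared between the cell types by an interaction term in control libraries with the mouse as a block. Of 33 entries, 5 were more positive and 2 more negative in satellite cells than in FAPs, where 23.8% of 18069 genes were called, 15.4% and 8.39% in these directions. P4ha2 differed most among the positive ones, with a difference in log2 change of 2.28 ± 0.28 SE (edgeR adjusted p = 0.000637): its day change was 1.53 in satellite cells and -0.59 in FAPs. Adm differed by 1.82 ± 0.32 SE (adjusted p = 0.00344), Pfkfb3 by 1.72 ± 0.26 SE (adjusted p = 0.00156) and P4ha1 by 1.57 ± 0.15 SE (adjusted p = 0.000201). For Hk1 the difference was 1.30 ± 0.19 SE (adjusted p = 0.00159). Egln3 fell in satellite cells and had 1.22, 3.28, 2.63 and 0.686 CPM in control FAPs at day 7 and 1.04, 3.20, 1.32 and 0.606 CPM at day 3, levels that overlapped. Its difference in day change was -3.73 ± 0.54 SE (adjusted p = 0.00132). Pgam1 was the other member with a more negative change in satellite cells, at -0.69 ± 0.18 SE (adjusted p = 0.0191), and with its named copies added the means were 135 CPM in satellite cells at day 7 and 334 CPM at day 3, against 123 CPM in FAPs at day 7 and 237 CPM at day 3. The call on Pgam1 was lost when only library totals scaled the counts (-0.40, adjusted p = 0.0783) and when libraries over 3 times the median of macrophage markers were left out (-0.55, adjusted p = 0.0610). No difference between the cell types was called for the other enzymes of the pathway, which does not show that they changed alike. DESeq2's Wald test called 5 members more positive and 5 more negative.

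The day comparison in libraries with BAT used other muscles of the same mice. In satellite cells with BAT 6 members rose and 16 fell of 33 tested, where 52.9% of 16313 genes were called, 28.5% higher and 24.4% lower at day 7. Pfkfb3 (2.24 ± 0.43 SE), Adm (1.999 ± 0.29 SE), Ndrg1 (1.35 ± 0.36 SE), Kdm3a (0.93 ± 0.15 SE) and P4ha1 (0.82 ± 0.21 SE) had the largest log2 rises. Egln3 (-2.45 ± 0.31 SE), Eno1 (-2.30 ± 0.15 SE), Vegfa (-1.94 ± 0.29 SE), Ldha (-1.87 ± 0.15 SE) and Pgk1 (-1.85 ± 0.15 SE) had the largest falls. Scaling by library totals alone gave 9 rises and 14 falls. P4ha2 had 41.6, 45.8, 29.2 and 49.98 CPM in satellite cells with BAT at day 7 and 10.6, 23.4, 8.70 and 45.3 CPM at day 3. It was not called there (log2 change 0.68 ± 0.43 SE, edgeR adjusted p = 0.202), and its highest day 3 values were in replicates 2 and 4, whose FAP markers summed to 330 and 380 CPM, against 58.6 CPM at the lowest. In FAPs with BAT 1 member rose and 17 fell of 32 tested, where 22.9% of 16119 genes were called, 10.3% higher and 12.6% lower. Kdm3a (log2 change 0.72 ± 0.16 SE, edgeR adjusted p = 0.0131) was the riser. Eno1 (-1.87 ± 0.20 SE), Pgk1 (-1.86 ± 0.19 SE), Gapdh (-1.54 ± 0.17 SE), Ldha (-1.54 ± 0.18 SE) and Vegfa (-1.45 ± 0.33 SE) had the largest falls. Without FAPs with BAT replicate 1 of day 3, rich in macrophage markers, 2 members rose and 14 fell. In satellite cells with BAT, pericyte and smooth muscle markers summed to 1928 to 2763 CPM at day 7 and 154 to 341 CPM at day 3, and Schwann cell markers to 99.6 to 491 CPM at day 7 and 16.1 to 65.9 CPM at day 3. Their part was not tested.

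Between the cell types, satellite cells had more of several enzymes between glucose-6-phosphate and pyruvate. They had less of the collagen prolyl hydroxylases, the secreted factors and Slc16a3, the only lactate exporter among the members. In control libraries at day 3, 33 entries were tested, and satellite cells exceeded FAPs in 8 and lay below them in 15. Of 16329 genes, 71.7% were called, 35.8% higher and 35.9% lower, so the number of members called is near the background and it is the direction within each role that is described. Of the 11 enzyme entries from glucose-6-phosphate to pyruvate, 7 were higher and 1, Pfkl, was lower. All 3 genes of glucose uptake and phosphorylation (Slc2a1, Hk1 and Hk2), both secreted factors and both collagen prolyl hydroxylases were lower. Egln3 had 34.8, 23.2, 24.0 and 25.5 CPM in satellite cells, against 1.04, 3.20, 1.32 and 0.606 CPM in FAPs (log2 difference 4.15 ± 0.30 SE, edgeR adjusted p = 2.54e-05). Gapdh had 293, 224, 275 and 268 CPM in satellite cells and 95.9, 111, 82.3 and 94.9 CPM in FAPs (log2 difference 1.35 ± 0.08 SE, edgeR adjusted p = 1.13e-05). Both were higher in every satellite cell library than in any FAP library. Pgk1 (log2 difference 0.96 ± 0.12 SE, edgeR adjusted p = 0.000325), Eno1 (log2 difference 0.91 ± 0.10 SE, edgeR adjusted p = 0.000193) and Aldoa (log2 difference 0.69 ± 0.09 SE, edgeR adjusted p = 0.000333) completed the 5 members most above FAPs. Ldha, the most abundant gene of pyruvate use, was at 1497 to 2091 CPM in satellite cells and 1153 to 1814 CPM in FAPs and was not called (log2 difference 0.18 ± 0.08 SE, edgeR adjusted p = 0.0885).

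P4ha2 stood furthest below FAPs at day 3. It had 9.77, 9.31, 15.8 and 13.1 CPM in control satellite cells and 369.6, 371, 288 and 297 CPM in control FAPs (log2 difference -4.93 ± 0.20 SE, edgeR adjusted p = 2.97e-06). P4ha1 (chr10:59323296-59373304) had 52.7, 39.5, 38.6 and 43.8 CPM in satellite cells, against 277, 303, 250.03 and 228 CPM in FAPs (log2 difference -2.72 ± 0.08 SE, edgeR adjusted p = 1.41e-06). Adm had 9.92, 6.49, 6.54 and 5.26 CPM in satellite cells and 49.9, 66.0, 42.2 and 46.8 CPM in FAPs (log2 difference -2.99 ± 0.11 SE, edgeR adjusted p = 2.46e-06). None of these groups overlapped. Pfkfb3 had 6.70, 4.14, 6.50 and 5.39 CPM in satellite cells, against 21.0, 40.7, 30.6 and 27.2 CPM in FAPs (log2 difference -2.50 ± 0.19 SE, edgeR adjusted p = 2.76e-05). Pdk1, the kinase that holds pyruvate back from the mitochondrial dehydrogenase, had 7.54, 3.26, 2.81 and 2.92 CPM in satellite cells and 18.9, 26.3, 14.5 and 14.4 CPM in FAPs (log2 difference -2.35 ± 0.15 SE, edgeR adjusted p = 1.46e-05). Hif1a (chr12:73901375-73947530) was lower too, at 47.8, 47.0, 51.5 and 47.6 CPM in satellite cells, against 155, 146, 145 and 163 CPM in FAPs (log2 difference -1.77 ± 0.07 SE, edgeR adjusted p = 3.25e-06). These 3 genes were lower in every satellite cell library than in any FAP library. Ndrg1, Hk2, Slc16a3 (the lactate exporter MCT4), Bnip3, Vegfa, Ddit4, Hk1, Slc2a1 and Pfkl made up the rest, with log2 differences of -2.19 for Ndrg1 to -0.58 for Pfkl.

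At day 7 the control cell types differed in 18 of 33 members, 6 above FAPs and 12 below, where 45.1% of 16969 genes were called, 22.5% higher and 22.6% lower in satellite cells. These libraries also enter the day comparisons, so the values are set side by side only. The second Aldoa entry (log2 difference 2.47 ± 0.54 SE, edgeR adjusted p = 0.00854), Gapdh (log2 difference 1.30 ± 0.19 SE, edgeR adjusted p = 0.00158), Pgk1 (log2 difference 0.81 ± 0.15 SE, edgeR adjusted p = 0.00432), Aldoa (log2 difference 0.60 ± 0.17 SE, edgeR adjusted p = 0.0232) and Eno1 (log2 difference 0.55 ± 0.19 SE, edgeR adjusted p = 0.0467) were furthest above FAPs. The second Aldoa entry never passed 2.13 CPM in any library and overlaps Fam57b on the opposite strand. P4ha2 had 34.0, 48.3, 42.2 and 50.2 CPM in control satellite cells and 186, 249, 236 and 161 CPM in control FAPs (log2 difference -2.67 ± 0.19 SE, edgeR adjusted p = 8.66e-05). Hk2, the inducible hexokinase, had 33.1, 60.6, 39.0 and 28.7 CPM in satellite cells, against 233, 179, 141 and 123 CPM in FAPs (log2 difference -2.50 ± 0.21 SE, edgeR adjusted p = 0.000153). For both genes the groups lay apart. Vegfa had 1.91, 2.74, 1.60 and 1.958 CPM in satellite cells and 8.89, 5.41, 5.76 and 10.1 CPM in FAPs (log2 difference -2.27 ± 0.29 SE, edgeR adjusted p = 0.000819). Slc16a3 (log2 difference -1.997 ± 0.36 SE, edgeR adjusted p = 0.00384) and Slc2a1 (log2 difference -1.72 ± 0.29 SE, edgeR adjusted p = 0.00273) were also lower. Egln3 had 3.00, 2.90, 4.25 and 2.60 CPM in satellite cells and 1.22, 3.28, 2.63 and 0.686 CPM in FAPs, which overlapped, and was not called at day 7 (log2 difference 0.48 ± 0.42 SE, edgeR adjusted p = 0.389). Hk1 was higher in satellite cells at day 7 (log2 difference 0.49 ± 0.14 SE, edgeR adjusted p = 0.0259) and lower at day 3 (log2 difference -0.79 ± 0.13 SE, edgeR adjusted p = 0.00146), and the change between days is the one its interaction term tested.

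Some day 7 calls lay near the threshold and were lost when a mouse was left out or the scaling changed. Aldoa lost its call without the mouse of replicate 4 (adjusted p = 0.0907) or replicate 1 (0.0699). Eno1 lost its call without the mouse of replicate 4, 1 or 3 (0.202, 0.178 and 0.0829), and Hk1 without replicate 4, 1 or 3 (0.116, 0.0874 and 0.0532). Scaling by library totals alone gave 10 members above FAPs and 11 below, because it moved the median of all genes to 0.47 on the log2 scale, against 0.05 with TMM, and members' differences are read relative to that shift. Without the mouse as a block, 3 members were higher and 11 lower, and Aldoa, Eno1, Hk1 and Pfkfb3 lost their calls (adjusted p of 0.0775, 0.178, 0.189 and 0.133). Pfkfb3 also lost its call with library totals (0.0725) and Eno1 with DESeq2's size factors (0.0567). Without the mouse of replicate 4, 3 members were higher and 14 lower, and without that of replicate 1, 3 and 12. FAP markers were present in satellite cell libraries at 133 to 425 CPM at day 7, against 7752 to 20521 CPM in FAPs. Satellite cell markers were in the FAP libraries of the replicate 3 mouse at 951 CPM with BAT and 806 CPM in control. Pericyte and smooth muscle markers summed to 1725 to 3319 CPM in control satellite cells, against 105 to 266 CPM in control FAPs. Schwann cell markers summed to 119 to 746 CPM and 7.77 to 11.8 CPM in these groups. The part of these other cells was not tested.

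**Figure D3:**
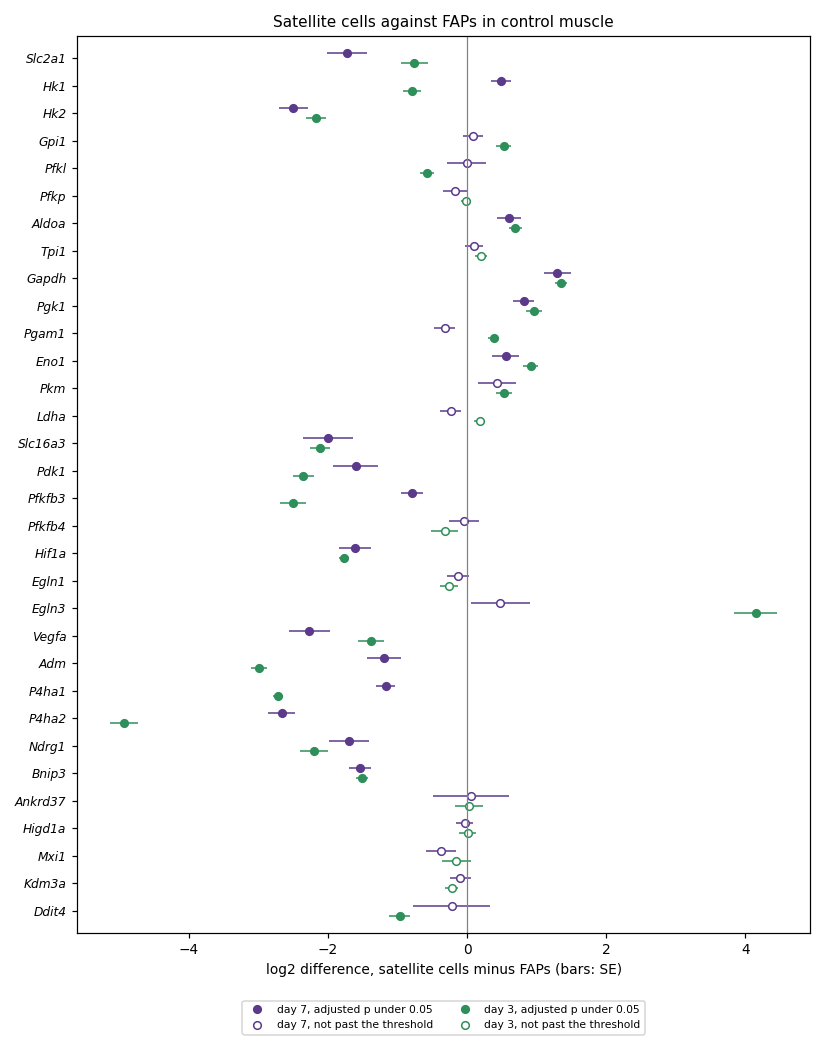
Log2 difference of each member (the second Aldoa entry is not drawn) between control satellite cells and control FAPs at day 7 and day 3, in order of role; bars are ± SE and filled points were called by edgeR at an adjusted p under 0.05. Gapdh, Pgk1 and Aldoa lie right of 0 at both days, P4ha1, P4ha2, Adm and Hk2 lie left of 0, and Egln3 lies far to the right at day 3 and near 0, not called, at day 7.

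In muscles with BAT the same comparison was made with other libraries of the same mice. At day 3, satellite cells exceeded FAPs in 6 members and lay below them in 18 of 32, where 66.5% of 16248 genes were called, 31.1% higher and 35.4% lower. Egln3 (3.29 ± 0.28 SE), Gapdh (1.08 ± 0.08 SE), Pgk1 (0.70 ± 0.09 SE), Eno1 (0.64 ± 0.11 SE) and Aldoa (0.50 ± 0.09 SE) were furthest above FAPs. P4ha2 (-4.62 ± 0.35 SE), Adm (-3.29 ± 0.15 SE), P4ha1 (-2.82 ± 0.16 SE), Pfkfb3 (-2.69 ± 0.25 SE) and Pdk1 (-2.68 ± 0.20 SE) were furthest below. At day 7 they exceeded FAPs in 4 and lay below them in 11 of 33, where 49.9% of 16624 genes were called, 24.5% higher and 25.3% lower. The 4 above FAPs were the second Aldoa entry (1.65 ± 0.46 SE), Gapdh (1.21 ± 0.16 SE), Egln3 (log2 difference 1.17 ± 0.41 SE, edgeR adjusted p = 0.0474) and Pgk1 (0.76 ± 0.13 SE). Egln3 lost this call without the mouse of replicate 1, 3 or 4 (adjusted p of 0.174, 0.106 and 0.0518), and the second Aldoa entry without replicate 1, 2 or 4 (0.104, 0.0835 and 0.0551). P4ha2 (-2.92 ± 0.22 SE), Slc16a3 (-2.52 ± 0.18 SE), Hk2 (-2.35 ± 0.17 SE), Vegfa (-2.32 ± 0.25 SE) and Ndrg1 (-1.91 ± 0.28 SE) were furthest below. Scaling by library totals alone gave 12 higher and 10 lower at day 7.

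The effect of BAT was tested within each mouse, the muscle with BAT against the control muscle. No member was called in any of the 4 comparisons by edgeR, and calls over all genes were few: 0 of 15631 genes in satellite cells at day 3 (0.0%), 3 of 16868 at day 7 (0.0178%), 3 of 15948 in FAPs at day 3 (0.0188%) and 0 of 16021 at day 7 (0.0%). At an unadjusted p under 0.05 the members were 2 of 33 in satellite cells at day 3, 3 of 33 at day 7, 12 of 32 in FAPs at day 3 and 1 of 32 at day 7. Over all genes that count was 472, 1261, 730 and 783 in these 4 comparisons, in the same order. The 12 members in FAPs at day 3 became 9, 16, 6 and 4 without the mouse of replicate 1, 2, 3 and 4, and 5 without the mouse as a block. By DESeq2's Wald test 1 member, Slc2a1 in FAPs at day 3, was called, and none in the other comparisons.

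FAPs at day 3 were the comparison in which the members leaned 1 way. The fitted change was above 0 for 32 of 32 members tested, with a median log2 of 0.23 and a range of 0.04 to 0.71, against 7471 of 15948 genes above 0 and a median of -0.01 over all genes. Slc2a1, the glucose transporter (chr4:119108711-119137983), had 135, 224, 125 and 179 CPM in FAPs with BAT, against 64.1, 180.1, 99.4 and 87.8 CPM in control FAPs. It was higher with BAT in 4 of 4 mice, while the groups overlapped, and it did not pass (log2 change 0.71 ± 0.16 SE, unadjusted p = 0.00272, edgeR adjusted p = 0.943). The DESeq2 Wald test gave an adjusted p of 0.0168 for it, and among the edgeR alternatives run the one without a filter on low counts alone called it (0.0305), with an adjusted p of 0.162 or more in the rest. Without the mouse of replicate 1 its change was 0.56 and its adjusted p 0.162. Replicate 2 had the highest value in both groups. Ndrg1 had 173, 227, 183 and 194 CPM with BAT and 124, 200.1, 162 and 136 CPM in control (log2 change 0.37 ± 0.10 SE, unadjusted p = 0.00845 in edgeR). Pfkfb3 had 37.4, 45.1, 32.7 and 48.0 CPM with BAT and 21.0, 40.7, 30.6 and 27.2 CPM in control (log2 change 0.50 ± 0.17 SE, unadjusted p = 0.0177 in edgeR). The groups overlapped for both genes, and neither passed (edgeR adjusted p = 0.957 and 0.957). Eno1 and Eno1b together averaged 1076 ± 93.0 CPM with BAT and 851 ± 112 CPM in control (SD, n = 4).

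Mice differed in this lean. The median log2 ratio of BAT to control over the members was 0.53 in the mouse of replicate 1, with 27 of 32 members higher, 0.00 in replicate 2 with 16 higher, 0.18 in replicate 3 with 26 higher and 0.36 in replicate 4 with 31 higher. In all, 10 members were higher with BAT in 4 of 4 mice and 17 in 3 of 4. The share of all genes higher with BAT was not counted within each mouse, so these counts have no background beside them. The BAT library of replicate 1 carried macrophage markers at 3954 CPM, and without that mouse 29 of 32 members stayed above 0 with a median of 0.16. Scaling by library totals gave 32 of 32 and a median of 0.20. A count over all genes is not given for either fit. The enzymes from glucose-6-phosphate to pyruvate summed to 7905, 5939.7, 6158 and 6200.1 CPM in FAPs with BAT and 5081, 6424, 4821 and 5550.0 CPM in control FAPs at day 3. The sums overlapped between the groups. No test of the set was made, so the shared direction is a description of these libraries.

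In the other 3 comparisons the members were spread on both sides of 0. In satellite cells at day 3, 19 of 33 were above 0 with a median log2 of 0.06. Slc2a1 (0.30 ± 0.11 SE, unadjusted p = 0.0345), Pkm (0.14 ± 0.06 SE, 0.0391) and Eno1 (0.16 ± 0.07 SE, 0.0558) had the smallest edgeR p-values and did not pass (adjusted p = 1.00 for each). In satellite cells at day 7, 14 of 33 were above 0 with a median of -0.06. Ndrg1 had 112, 222, 59.5 and 121 CPM with BAT and 164, 249, 86.6 and 154 CPM in control, lower in 4 of 4 mice (log2 change -0.38 ± 0.10 SE, unadjusted p = 0.00388, edgeR adjusted p = 0.626). Egln3 had 5.10, 4.06, 8.35 and 3.35 CPM with BAT and 3.00, 2.90, 4.25 and 2.60 CPM in control, higher in 4 of 4 mice (log2 change 0.68 ± 0.21 SE, unadjusted p = 0.00995, edgeR adjusted p = 0.627). Adm had 30.6, 43.3, 17.6 and 33.9 CPM with BAT and 26.2, 29.3, 15.6 and 25.1 CPM in control (log2 change 0.37 ± 0.12 SE, unadjusted p = 0.0123, edgeR adjusted p = 0.627). None of these passed, and the groups overlapped for all 3. In FAPs at day 7, 18 of 32 were above 0 with a median of 0.03. Hk1 (0.34 ± 0.12 SE, unadjusted p = 0.0192), Mxi1, an antagonist of Myc (-0.36 ± 0.16 SE, 0.0555), and Ndrg1 (-0.20 ± 0.09 SE, 0.0654) had the smallest edgeR p-values, with adjusted p = 0.953, 0.953 and 0.953. Brown fat markers here were highest in a control library, replicate 4, as given above, and without that mouse 0 members were called and the median was -0.02.

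**Figure D4:**
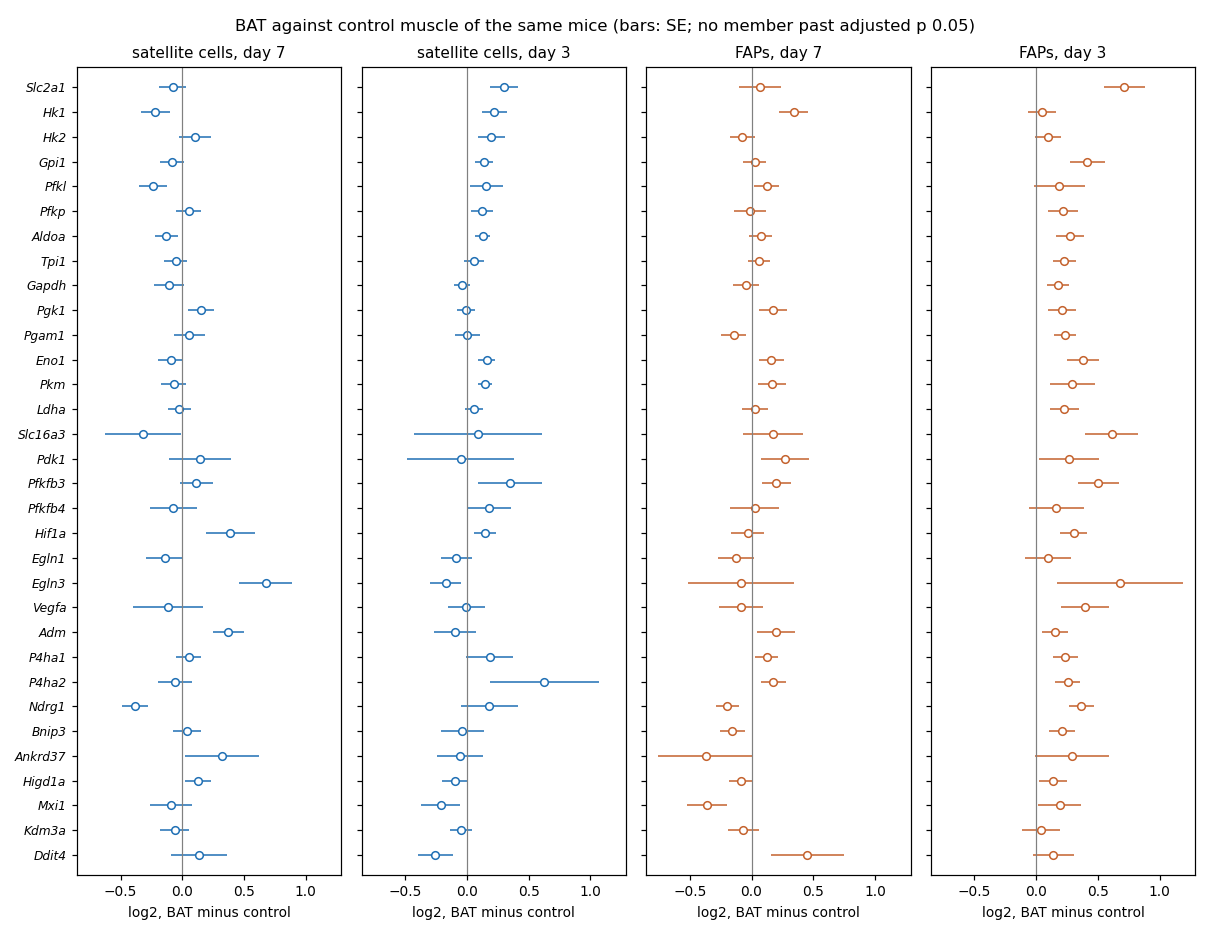
Log2 change of each member (the second Aldoa entry is not drawn) with BAT relative to control in satellite cells and FAPs at each day, in order of role; bars are ± SE. No point was called by edgeR at an adjusted p under 0.05, and in FAPs at day 3 all points lie right of 0.

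Whether the effect of BAT differed between days or cell types was tested directly. Of the members, 0 of 33 differed between days in satellite cells by edgeR (0.0% of all genes, 7 members at an unadjusted p under 0.05, where 910 of 17774 genes were), and 0 of 32 in FAPs (0.0% of all genes, 5 members and 579 of 17284 genes at that p). Between cell types 0 of 33 differed at day 3 (0.0229% of 17445 genes called, 0 members at that p) and 0 of 33 at day 7 (0.0% of all genes, 2 members and 1205 of 18033 genes at that p). DESeq2's Wald test also called 0 members in each. The fitted difference of day 7 minus day 3 was below 0 for all but 4 of the 32 members in FAPs, with a median of -0.21. The share of all genes below 0 is not given here, so this is a description only. A p that misses the threshold does not show that the effects were alike.

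Other genes of the same pathways were counted from fixed lists. Of the other glycolysis genes, 24 of 32 listed were tested between control cell types at day 3, with 9 higher and 13 lower in satellite cells, and 6 higher and 6 lower at day 7, beside 71.7% and 45.1% of all genes called at these days. Eno3, the muscle enolase (7.55 ± 0.14 SE), and Pgam2, the muscle phosphoglycerate mutase (4.81 ± 0.49 SE), led at day 3 with Pdk4, another pyruvate dehydrogenase kinase (3.47 ± 0.10 SE), while Eno2, the neuronal enolase (-3.37 ± 0.24 SE), and Aldoc (-1.98 ± 0.58 SE) were among those below FAPs. In control satellite cells 8 rose and 8 fell of 22 at day 7, beside 59.4% of all genes, with Slc2a4, the insulin-responsive transporter GLUT4, among the rises (3.00 ± 0.36 SE) and Eno3 among the falls (-2.71 ± 0.17 SE). In control FAPs 6 rose and 3 fell of 24, beside 23.0% of all genes, led by Gpd1 (2.88 ± 0.84 SE) and by Aldoc among the falls (-3.11 ± 0.71 SE). Both were low: Gpd1 averaged 3.23 ± 4.20 CPM (SD) at day 7 and 0.433 CPM at day 3. Aldoc averaged 0.0727 CPM at day 7, below the floor of 3 counts, and 0.634 CPM at day 3. Pgam2 and Eno3 also stand in the mature myofibre list, whose summed levels by day are given above for satellite cells.

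The other hypoxia genes, 45 listed, were counted in the same way. At day 3, 7 were higher and 29 lower in control satellite cells than in control FAPs of 43 tested, and at day 7 the counts were 9 and 20, beside 35.8% of all genes higher and 35.9% lower at day 3, and 22.5% and 22.6% at day 7. Lox, the collagen cross-linking enzyme (-6.47 ± 0.49 SE), Ndufa4l2 (-4.97 ± 0.51 SE) and Loxl2 (-4.04 ± 0.25 SE) were furthest below at day 3, and Pdgfb, a growth factor, furthest above (7.93 ± 0.54 SE). Pdgfb averaged 11.5 CPM in satellite cells and 0.0424 CPM in FAPs, the latter below the floor of 3 counts. In control satellite cells 24 rose and 10 fell of 44 at day 7, beside 29.7% of all genes higher and 29.8% lower. Epas1, which encodes the HIF-2 alpha subunit (3.96 ± 0.65 SE), Ppp1r3c, a glycogen-targeting subunit (3.85 ± 0.53 SE), and Cox4i2 (3.75 ± 0.66 SE) led the rises. Epas1 averaged 76.0 ± 64.1 CPM (SD) at day 7 and 3.88 CPM at day 3, and Cox4i2 25.2 ± 21.2 CPM and 1.48 CPM. Ppp1r3c was low, at 4.15 CPM at day 7 and 0.213 CPM at day 3. Pericyte and smooth muscle markers were at 1725 to 3319 CPM at day 7 and 177 to 295 CPM at day 3 in the same libraries. Their part was not tested. Car9, a carbonic anhydrase induced by HIF-1 (-3.77 ± 0.50 SE), Mif (-2.32 ± 0.14 SE) and Hilpda (-1.49 ± 0.32 SE) led the falls. Car9 was low, at 0.195 CPM at day 7, near the floor of 3 counts, and 2.10 ± 1.32 CPM (SD) at day 3. In control FAPs 7 rose and 5 fell of 43, beside 23.0% of all genes called, and Car9 (-3.84 ± 0.80 SE) and Mif (-1.87 ± 0.29 SE) were again among the falls. Car9 averaged 0.224 CPM at day 7 and 3.19 ± 2.89 CPM (SD) at day 3 in these FAPs. The day change was more positive in satellite cells than in FAPs for 17 of 44 and more negative for 3, beside 15.4% and 8.39% of all genes. Cox4i2 (5.03 ± 0.52 SE), Ndufa4l2 (3.72 ± 0.60 SE) and Lox (3.39 ± 0.60 SE) were the largest. Ndufa4l2 also varied widely, at 97.7 ± 89.7 CPM (SD) in control satellite cells at day 7. None of either list was called in the 4 BAT comparisons.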

How the data were processed

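RNA of sorted satellite cells and FAPs was sequenced in 32 libraries; the sort took CD45- and CD31- cells that were Sca1+, with a7integrin dividing the cell types, per the labels. RNA of 10 ng was made into cDNA with the SMARTer Ultra Low kit, per the labels' protocols. For each day the authors deposited 1 table of expected counts, made with DRAGEN on mm10 (per the submitters' processing notes); 71.3% and 72.2% of values above 0 were exactly whole numbers in the day 3 and day 7 tables. How reads that match several genes or either strand were counted is not given in the sources used here. Of 55774 entries per table, 287 exact repeats were dropped, leaving 55487 genes. Rounding the expected counts changed a library total by 0.000343% at most.

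Comparisons used edgeR 4.0.16 in R 4.3.3: TMM scaling, a filter on low counts (filterByExpr, minimum count 10 and total 15), the quasi-likelihood F test over all genes tested and Benjamini-Hochberg adjustment, called at an adjusted p under 0.05. The SE is the log2 change divided by the root of F. The mouse was a block within a day, since the series text says that paired samples share a mouse; mouse codes in the titles matched satellite cells to FAPs, except that 1 day 3 mouse without a code in either sort was taken as the same animal. Correlating the paired libraries, after subtracting group means, gave a mean r of 0.488 in satellite cells and 0.644 in FAPs at day 7, and of 0.0308 and 0.185 at day 3. The mice of the 2 days differ, so day comparisons had no block. No library was a repeat of another: over 48 pairs, chi-square divided by its degrees of freedom was 17.1 or more. DESeq2 1.42.0 was an alternative, as were other scalings, no filter, no block and leaving out libraries; the floors cover counting error only.

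All members were described. Full statistics went to the 5 called members with the largest change in each direction, or in BAT comparisons to the 3 members of smallest p. The members, marker lists and other pathway lists were chosen with earlier results of these data known. Coordinates are mm10, from GENCODE M21, in which 55141 gene IDs matched. Upstream windows came from RefSeq GRCm38.p6.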

Additional observations from a re-analysis of the deposited data

Results flagged for a closer look

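The day change of 7 of 33 members differed between satellite cells and FAPs in control muscles by the edgeR interaction term, where 23.8% of 18069 genes were called, so the number called is not a result about the members. The difference in log2 change, satellite cells minus FAPs, was 2.28 for P4ha2, 1.82 for Adm, 1.72 for Pfkfb3, 1.57 for P4ha1, 1.30 for Hk1, -0.69 for Pgam1 and -3.73 for Egln3.

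In 20 of 264 groups of 4 libraries tested, 1 library stood far from the other 3 by Dixon's criterion, where chance gives about 1 in 20. In FAPs, control replicate 2 of day 3 was high for 4 genes: Pgk1 at 238 CPM (others 144 to 147), Bnip3 at 194 CPM (others 95.4 to 108), Higd1a at 92.7 CPM (others 56.3 to 60.0) and Ankrd37 at 4.31 CPM (others 1.93 to 2.21). Day 7 replicate 3, the mouse with Xist, was high in FAPs with BAT for Hif1a at 356 CPM (others 94.1 to 116), Tpi1 at 176 CPM (others 132 to 135) and Pgk1 at 65.1 CPM (others 44.8 to 46.3). The same mouse was high in control FAPs for Pdk1 at 18.7 CPM (others 6.69 to 7.61). Its Hif1a was 351 CPM in control FAPs as well, against 89.9 to 137 CPM in the other control FAPs. Its FAP libraries also held satellite cell markers at 951 CPM with BAT and 806 CPM in control, and their part was not tested.

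Some of the flagged values were in libraries rich in macrophage markers. In satellite cells with BAT replicate 4 of day 3, Pfkl was at 172 CPM (others 95.1 to 108) and Slc16a3 at 29.4 CPM (others 4.90 to 8.75). In FAPs with BAT replicate 1 of day 3, Pfkp was at 119.9 CPM (others 81.8 to 82.6). Control satellite cells replicate 3 of day 3, with macrophage markers at 1445 CPM, was flagged for none of the members. In FAPs at day 3, Ddit4, an inhibitor of mTOR signalling, was low in the BAT replicate 2 at 67.8 CPM (others 118 to 123) and high in control replicate 4 at 114 CPM (others 89.5 to 93.4). In satellite cells with BAT the further values were Tpi1 at 209.9 CPM in day 7 replicate 4 (others 178 to 183), Slc16a3 at 8.46 CPM in day 7 replicate 1 (others 5.70 to 5.89) and Ankrd37 at 4.83 CPM in day 3 replicate 1 (others 1.85 to 2.27). In control satellite cells they were Pfkp at 142 CPM in day 7 replicate 2 (others 74.8 to 77.8), Ankrd37 at 2.56 CPM in day 7 replicate 3 (others 2.30 to 2.32), Aldoa, low at 2493 CPM, in day 3 replicate 2 (others 2865 to 2909) and Pdk1 at 7.54 CPM in day 3 replicate 1 (others 2.81 to 3.26).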

How the results depend on the processing

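No called member changed sign under any alternative run. The number of members called moved for the BAT effect in FAPs at day 3, to 1 without a filter on low counts and 1 with DESeq2's Wald test (Slc2a1 in both), and in FAPs at day 7, to 1 without the filter (Ddit4), where edgeR with the filter called 0. Single members were followed under alternatives only if called in the main fit, or among the 3 of smallest p in a BAT comparison. Of these 2127 results, 2005 kept their side of the threshold, 120 lost the call and 2 gained it. Gains by other members, such as Ddit4, are not in this count. Leaving out a library or mouse gave 0 members called in every BAT comparison and in every test of a difference of the BAT effect. It gave 23 to 24 for satellite cells against FAPs in control muscles at day 3, 15 to 18 at day 7, and 21 to 25 and 13 to 17 with BAT at day 3 and day 7. Between days it gave 21 to 24 in control satellite cells, 10 to 16 in control FAPs, 20 to 24 and 14 to 21 in satellite cells and FAPs with BAT, and 7 to 10 for the difference between cell types. Without the replicate block 23 and 14 members were called between control cell types at day 3 and day 7, 22 and 15 with BAT, 7 in the interaction and 0 in each BAT comparison. Scaling by library totals moved the median of all genes to 0.39 on the log2 scale in the day comparison of control satellite cells and to 0.41 in the interaction. Leaving out the 3 libraries rich in macrophage markers was chosen after seeing the data and called 24 members between control cell types at day 3 and 25 with BAT. The planned form, which left out libraries over 3 times the median, was not run for the BAT effect in satellite cells at day 3 or for its difference between cell types at day 3, since too few libraries remained.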

Other observations

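Several steps of glycolysis can be taken by more than 1 isoform, and the isoform makeup differed between the cell types and days; these shares are of summed CPM per kb within a family, in control libraries, with no test (mean ± SD, n = 4). Hk1 made up 69.9 ± 7.51% of hexokinase transcripts in satellite cells at day 7 and 47.7 ± 9.81% at day 3, against 23.1 ± 3.85% in FAPs at day 7 and 27.3 ± 4.35% at day 3. Hk2 made up most of the rest in both cell types. Hk3, a hexokinase of myeloid cells, reached 23.6% in FAPs with BAT replicate 1 of day 3, the library richest in macrophage markers. Pfkm, the muscle phosphofructokinase, made up 36.4 ± 3.15% of phosphofructokinase transcripts in satellite cells at day 7 and 14.8 ± 3.90% at day 3. In FAPs its share was 30.5 ± 5.54% at day 7 and 17.1 ± 3.00% at day 3. Pgam2, the muscle form, made up 66.2 ± 8.03% of phosphoglycerate mutase transcripts in satellite cells at day 7 and 10.0 ± 6.05% at day 3, with copies of Pgam1 not added. Eno3, the muscle form, made up 76.3 ± 4.17% of enolase transcripts in satellite cells at day 7 and 83.4 ± 1.37% at day 3, and Eno1 23.2 ± 4.10% at day 7 and 16.6 ± 1.37% at day 3, with copies of Eno1 not added. In FAPs Eno3 made up 15.6 ± 6.65% at day 7 and 4.76 ± 0.597% at day 3, and Eno1 70.8 ± 8.37% at day 7 and 93.3 ± 0.726% at day 3. Ldhb, which favours the use of lactate, made up 12.7 ± 1.57% of lactate dehydrogenase transcripts in satellite cells at day 7 and 7.51 ± 1.57% at day 3. Mature myofibre markers, a list that holds Pgam2 and Eno3, also summed higher in some day 7 satellite cell libraries. Eno3 itself, a large part of the day 3 sum, fell at day 7, and the part of these markers was not tested.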
